A study of Mus musculus with 7 samples.

Results

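The miRNAs described here come from 9 hairpins of the Rtl1 region of the imprinted Dlk1-Dio3 domain, miR-127, miR-136, miR-337, miR-431, miR-433, miR-434, miR-540, miR-665 and miR-673. Every strand of these hairpins with an assay was taken, by the assay's name, which gave 17 strands of the 517 mouse miRNA assays in the table. Both strands were measured for 8 hairpins, and only the plain-named strand for miR-665.

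The 17 strands were measured by quantitative PCR in 3 cultures of M1 macrophages and 4 aortas. The macrophages were grown for 7 days from the bone marrow of female C57BL/6 mice aged 6 to 8 weeks, in medium conditioned by L929 cells. To bring them to the M1 (inflammatory) state they received lipopolysaccharide (100 ng/ml) over 14 hours and interferon-γ (10 ng/ml) over 6 hours. The aortas were untreated controls from female mice of the same age, and their strain is labelled apoE-/-, while the series title calls the tissue normal. Strain, culture and cell type therefore changed together between the groups and cannot be told apart, and no unstimulated macrophages were measured. The labels call the samples biological replicates but do not say that each came from its own animal, so p-values measure the spread between these samples.

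In the Dlk1-Dio3 domain, the maternal chromosome makes long noncoding RNAs (Meg3, the Rtl1 antisense transcript, Rian and Mirg) and the paternal chromosome makes the protein-coding genes Dlk1, Rtl1 and Dio3. Rtl1 derives from a retrotransposon and is needed for the fetal vessels of the placenta. Several miRNAs cut from the transcript antisense to Rtl1 pair perfectly with Rtl1 mRNA and guide its cleavage in the mouse. Each hairpin can give 2 mature strands, from its 5p and 3p sides. In older names the less abundant one carries a star.

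Of the 17 assays, 8 carry the name of a strand in RefSeq (GRCm38.p6) and 9 have the older plain or star name, which was tied to a strand by standard naming. In that annotation the 9 hairpins lie on the plus strand of chr12:109571990-109595388, a stretch of 23399 bases, and all 9 fall inside the span of the Rtl1 gene. Mir673 comes first, and 13708 bases separate it from Mir337. The gaps between the other neighbours are 167 to 4039 bases. The strands of the 5 hairpins on which the results below turn are printed because their 2 strands can be set side by side in the aortas, and capitals mark the seed (bases 2 to 8), which pairs with targets.
miR-673-5p: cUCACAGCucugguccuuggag
miR-673-3p: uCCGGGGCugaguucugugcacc
miR-337-5p: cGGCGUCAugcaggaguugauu
miR-337-3p: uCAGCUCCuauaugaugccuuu
miR-127 (3p): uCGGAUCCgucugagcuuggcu
miR-127* (5p): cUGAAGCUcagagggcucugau
miR-434-5p: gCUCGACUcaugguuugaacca
miR-434-3p: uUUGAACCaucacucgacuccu
miR-136 (5p): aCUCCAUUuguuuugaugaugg
miR-136* (3p): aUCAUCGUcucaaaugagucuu

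The hairpins are at chr12:109571990-109572080 (Mir673), chr12:109585789-109585885 (Mir337), chr12:109592846-109592915 (Mir127), chr12:109594506-109594599 (Mir434) and chr12:109595327-109595388 (Mir136). No seed recurred among the 17 strands. Among 1679 mature mouse miRNA entries in RefSeq, 15 of the 17 seeds belonged to that strand alone, and miR-673-5p and miR-540-3p each shared theirs with 1 other miRNA. The GC content of the strands was 36.4% to 65.2%, lowest in both strands of miR-136 and highest in miR-673-3p. The strands of miR-434 shared a run of 9 bases and those of miR-431 a run of 10, and runs at least as long were found in 1.41% and 0.628% of the 637 hairpins with both strands listed.

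Each value is a cycle threshold (Ct), the PCR cycle at which the assay crossed its threshold, so that an earlier Ct stands for more target. A well was taken as detected at Ct 35 or earlier, and wells that never crossed are listed at 40. Aortas detected more of these strands than macrophages did. The M1 macrophage samples detected 6, 6 and 4 of the 17 strands, and the aortas 13, 12, 15 and 13, so the groups did not overlap. Over all miRNA assays, macrophage samples detected 63.1% to 70.8% and aortas 80.5% to 87.8%. For the 296 miRNAs that all 7 samples detected, Ct averaged 26.20 ± 1.36 (SD, n = 3) in macrophages and 23.56 ± 0.86 (SD, n = 4) in aorta, with the latest, 27.77, in macrophage replicate 3. Macrophage wells thus crossed later in general, not only for these strands.

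**Figure D1:**
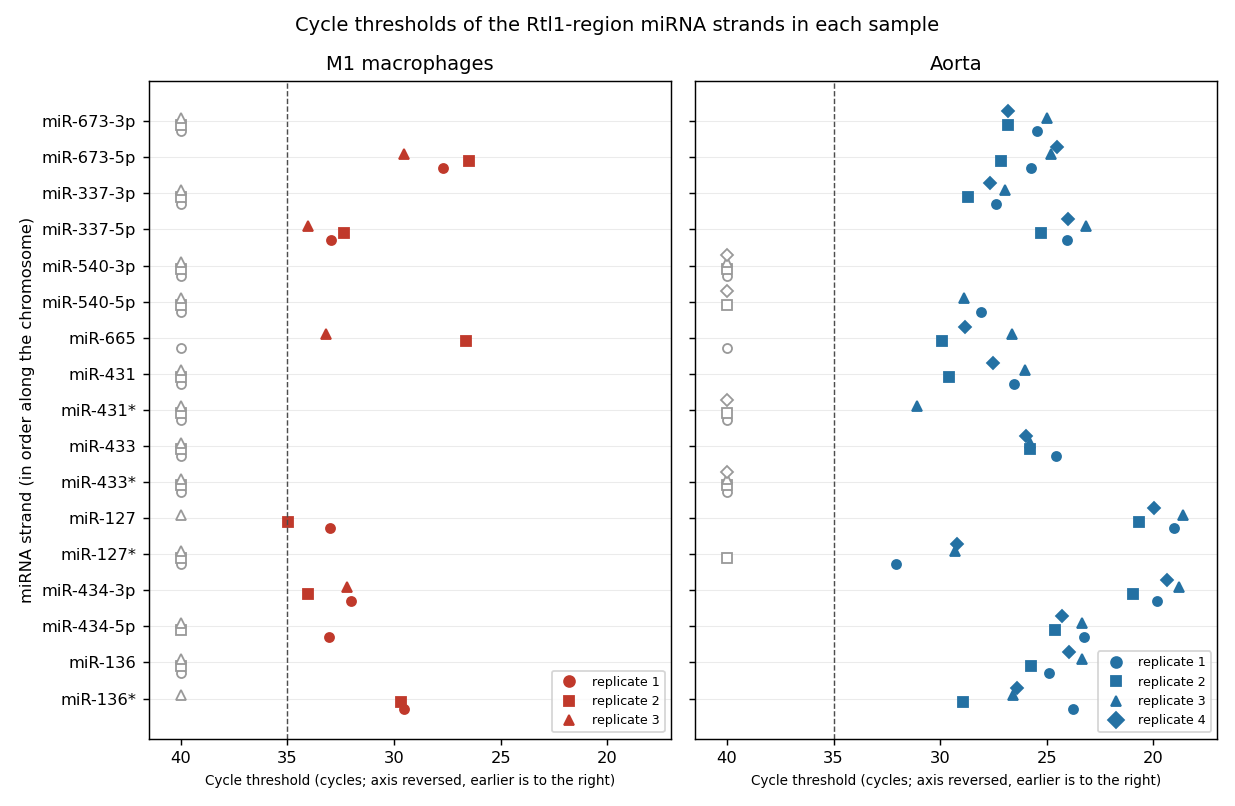
Cycle threshold of each of the 17 strands in the M1 macrophages (left) and the aortas (right), with hairpins in chromosome order from the top, 1 marker shape per replicate and a reversed axis in cycles. Filled markers are detected wells and open markers at 40 are wells that did not cross, and the dashed line is the limit of Ct 35. Of the 17 strands, 11 were filled in all 4 aortas, while 3 were filled in all 3 macrophage samples. Over all 517 miRNA assays, 386 were detected in all 4 aortas and 313 in all 3 macrophage samples.

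The sample types matched the markers of their cells, with no exception among 19 marker miRNAs outside nerve. All 13 markers of smooth muscle, endothelium, striated muscle, fibroblasts, fat and red blood cells (such as miR-145 of smooth muscle and miR-126-3p of endothelium) were lower in macrophages, and all 6 of white blood cells and M1 activation (such as miR-223, miR-142-3p and miR-155) were higher. On the log2 scale explained below, the summed level of the 13 was 1.41 to 2.11 in macrophages and 12.41 to 13.33 in aorta, and 3 of the 13 (miR-133a, miR-133b and miR-486) were detected in no macrophage sample. The summed level of the 6 was 9.64 to 10.77 in macrophages and 5.01 to 6.12 in aorta. Of 2 nerve markers, miR-9 was lower in macrophages (-3.02, adjusted p = 0.00605) and miR-124 was higher (8.10, adjusted p = 0.0486), the second with macrophage replicate 1 far ahead of the others at Ct 9.10. The hairpins' lower values in macrophages therefore moved with those of the vessel, muscle, fibroblast, fat and red cell markers, whose part in them was not tested. In such bulk samples, fewer cells of a type and less RNA per cell cannot be told apart.

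The assay for a plant miRNA with no mouse counterpart also gave signals. It was detected in 1 macrophage sample, at Ct 31.41, and in 3 aortas, at 27.94, 28.42 and 21.12. It did not cross in the other samples. The signal at 21.12, in aorta replicate 3, was earlier than that of every strand described here in that aorta except miR-127 (18.60) and miR-434-3p (18.79). In macrophage replicate 3 the plant signal at 31.41 was earlier than miR-434-3p (32.22), miR-665 (33.20) and miR-337-5p (34.03). It was later than miR-673-5p (29.54) in that sample. The part of such signals in the aorta and macrophage values was not tested.

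For the comparison, each Ct was subtracted from its sample's average over those 296 miRNAs to give a scaled level, after wells later than 35 had been set to 35. The scale is log2 only where a cycle doubles the product, and assay efficiencies were not measured. Differences are macrophages minus aorta, from limma fitted on all 429 miRNAs detected in at least 3 samples of a group, with Benjamini-Hochberg adjusted p and a threshold of 0.05. Of the 17 strands, 9 were lower in macrophages, none was higher, 4 did not pass and 4 were too rarely detected to be tested. Of all 429 miRNAs, 30.8% were lower and 24.7% were higher. The median difference was -6.33 over the 13 tested strands, with undetected wells at the limit, and -0.21 over all 429. Several strands entered the test through the aortas alone, so the count of 9 is a description. For 5 of the 9 (miR-136, miR-337-3p, miR-431, miR-433 and miR-673-3p) no macrophage sample gave a signal and the macrophage values are the limit itself, at -9.61, -9.55 and -7.23 on the scaled level. The SE and adjusted p of these 5 therefore describe the limit and the spread of the aortas, not a measured macrophage level. They are 29.4% of the 17 strands, and 9.28% of all 517 assays were likewise detected in all 4 aortas and no macrophage sample.

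**Figure D2:**
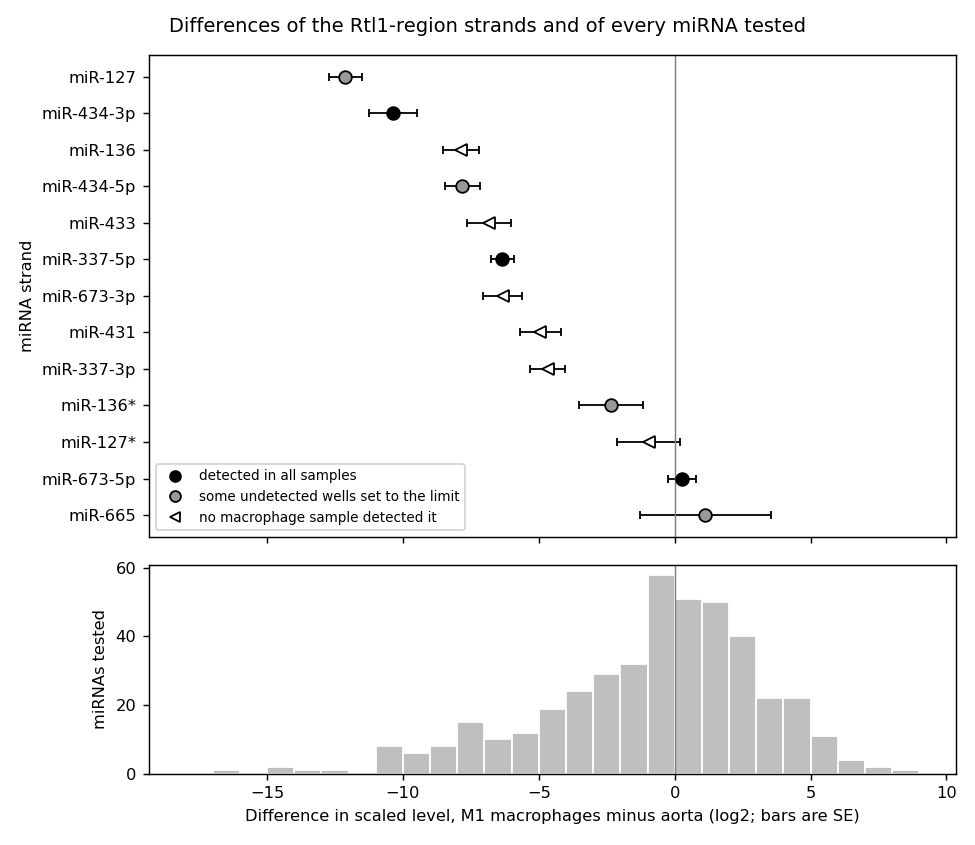
Difference in scaled level between M1 macrophages and aorta on a log2 axis, with SE bars, for the 13 tested strands (top), and a histogram of the same difference for all 429 miRNAs tested (bottom). The 9 strands that passed lie between -12.12 and -4.68, and open triangles mark strands that no macrophage sample detected.

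miR-127 and miR-434-3p, the strands with the earliest signals in aorta, were both lower in macrophages. miR-127, which in mouse macrophages has been tied to the inflammatory state through Bcl6, had Ct 32.99 and 34.97 in macrophage replicates 1 and 2 and did not cross in replicate 3. In the aortas it was at 19.03, 20.67, 18.60 and 19.96. The 2 macrophage wells were close to the limit, and both lay more than 12 cycles later than any aorta. The difference was -12.12 ± 0.62 (SE, adjusted p = 1.2e-05) with the uncrossed well at the limit, and -11.39 without macrophage replicate 2. miR-127*, its partner, crossed in no macrophage sample, and in aortas at 32.06, 29.32 and 29.23 with no crossing in replicate 2. Its difference of -0.96 ± 1.17 (SE, adjusted p = 0.527) did not pass, with every macrophage value at the limit. The groups' scaled levels overlapped only through these limits (-9.61, -9.55 and -7.23), so the result does not show equal levels.

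miR-434-3p was measured in every sample. Its Ct was 32.02, 34.02 and 32.22 in macrophages, against 19.84, 20.95, 18.79 and 19.36 in aortas. The groups stood more than 11 cycles apart, and miR-434-3p was lower in macrophages by 1330-fold, at -10.37 ± 0.89 (SE, adjusted p = 8.8e-05). It was at -9.34 without macrophage replicate 2 and -11.32 without replicate 3. miR-434-5p was detected in macrophage replicate 1 only, at Ct 33.06, and in aortas at 23.28, 24.63, 23.36 and 24.31. Its difference, with 2 wells at the limit, was -7.82 ± 0.65 (SE, adjusted p = 8.2e-05), or -7.09 without macrophage replicate 2. Both strands of this hairpin were thus lower in macrophages.

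miR-136, miR-433 and miR-431 gave a signal in each of the 4 aortas but not in macrophages, so their differences are lower bounds on the size. miR-136 had Ct 24.92, 25.75, 23.35 and 23.97 in aortas and was at least 233-fold lower in macrophages (-7.86 ± 0.66 SE, adjusted p = 8.4e-05). miR-433, linked to fibroblast activation in the heart, had Ct 24.55, 25.79, 25.78 and 25.98 in aortas and was at least 114-fold lower (-6.83 ± 0.82 SE, adjusted p = 0.000339). miR-431, known from muscle regeneration in the mouse, had Ct 26.56, 29.59, 26.01 and 27.54 in aortas and was at least 30.6-fold lower (-4.94 ± 0.75 SE, adjusted p = 0.00116). The later a strand crossed in aorta, the smaller the bound that the limit allows, so these 3 bounds do not rank the strands. Without macrophage replicate 3, whose wells were latest in general, the differences were -8.54 for miR-136, -7.52 for miR-433 and -5.62 for miR-431.

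miR-337 lies in the group of 3 hairpins nearest upstream of miR-431. miR-337-5p crossed in every sample, at Ct 32.94, 32.36 and 34.03 in macrophages, against 24.06, 25.27, 23.18 and 24.02 in aortas. Its scaled level in macrophages was 80.9-fold lower, at -6.34 ± 0.42 (SE, adjusted p = 3.4e-05). Its scaled level hardly varied between the aortas, from -0.60 to -0.55, the smallest SD (0.018) among the 386 miRNAs detected in all 4 aortas, where the median SD was 0.61. miR-337-3p crossed in no macrophage sample and at 27.38, 28.70, 26.98 and 27.66 in aortas. It was at least 25.7-fold lower (-4.68 ± 0.64 SE, adjusted p = 0.000689), or at -5.36 without macrophage replicate 3.

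In miR-673, as in miR-127 and miR-136, 1 strand passed the test and its partner did not. For miR-127 the partner's macrophage values were the limit itself, so this outcome shows no contrast between its strands. miR-673-5p was one of the 3 strands detected in all samples, at Ct 27.71, 26.48 and 29.54 in macrophages, against 25.76, 27.14, 24.79 and 24.53 in aortas. Its scaled level was -1.71 ± 0.65 (SD, n = 3) in macrophages and -1.99 ± 0.61 (SD, n = 4) in aorta, and the groups overlapped. The difference of 0.28 ± 0.51 (SE, adjusted p = 0.665) did not pass, which does not show equal levels. It depended on the scaling, and with snoRNA135 and snoRNA202 as the scale miR-673-5p was lower in macrophages (-1.96, adjusted p = 0.0154). miR-673-3p crossed in no macrophage sample, but at Ct 25.45, 26.83, 25.01 and 26.82 in aortas, close to its partner there. It was at least 80.6-fold lower in macrophages (-6.33 ± 0.71 SE, adjusted p = 0.000261), or at -7.02 without macrophage replicate 3.

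miR-136* and miR-665 were uneven within groups. miR-136* had Ct 29.55 and 29.66 in macrophage replicates 1 and 2 and no crossing in replicate 3, against 23.76, 28.93, 26.58 and 26.41 in aortas. Its scaled levels overlapped between the groups, and the difference of -2.34 ± 1.18 (SE, adjusted p = 0.132) did not pass. miR-665 had no crossing in macrophage replicate 1, Ct 26.61 in replicate 2 and 33.20 in replicate 3. In aorta replicate 1 it had no crossing, and it was at 29.92, 26.62 and 28.83 in the other aortas. The span within each group exceeded the difference between them, 1.13 ± 2.40 (SE, adjusted p = 0.715), and its sign turned when aorta replicate 1 (-0.53) or macrophage replicate 2 (-0.96) was left out.

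The remaining 4 strands gave little or no signal. miR-540-5p crossed in aorta replicates 1 and 3, at Ct 28.11 and 28.89, and miR-431* in aorta replicate 3 at 31.09. miR-433* and miR-540-3p crossed in no sample. None of the 4 crossed in a macrophage sample, and none was tested.

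The same 9 strands passed as lower under each of 5 other scalings, which for the 5 strands at the limit in macrophages is no sign of stability. Of the strands detected in every macrophage sample, miR-434-3p and miR-337-5p passed in each. Scaling to MammU6 put the 9 strands between -12.77 and -5.34, with a median over all 429 miRNAs of -0.86. Of the 429, 124 (28.9%) were then lower against 52 higher. The pair snoRNA135 and snoRNA202 put the 9 between -14.36 and -6.92, with a median of -2.45 and 231 (53.8%) lower against 32 higher. Quantile normalization put them between -11.30 and -4.47, with a median of 0.41 and 118 (27.5%) lower against 147 higher. The deposited values, which keep uncrossed wells at Ct 40, put them between -14.78 and -7.33, with a median of -1.40 and 155 (36.1%) lower against 53 higher. Raw Ct with no scaling put them between -14.76 and -7.32, with a median of -2.85 and 207 (48.3%) lower against 10 higher. The scaling above gave 132 lower against 106 higher. Among only the 296 miRNAs detected in every sample, of which 25.7% were lower, the tested strands were miR-337-5p and miR-434-3p, both lower, and miR-673-5p. Testing all 517 assays, of which 25% were lower and 26.9% higher, called 9 strands lower and 2 higher, miR-433* and miR-540-3p, whose wells never crossed and whose values are the limit itself. With the snoRNA pair miR-127* (-3.20, adjusted p = 0.0308) and miR-136* (-4.58, adjusted p = 0.0139) were lower too, and without scaling so were miR-127* (-3.60, adjusted p = 0.0473) and miR-136* (-4.98, adjusted p = 0.023). miR-673-5p and miR-665 were the tested strands whose sign turned with the scale.

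**Figure D3:**
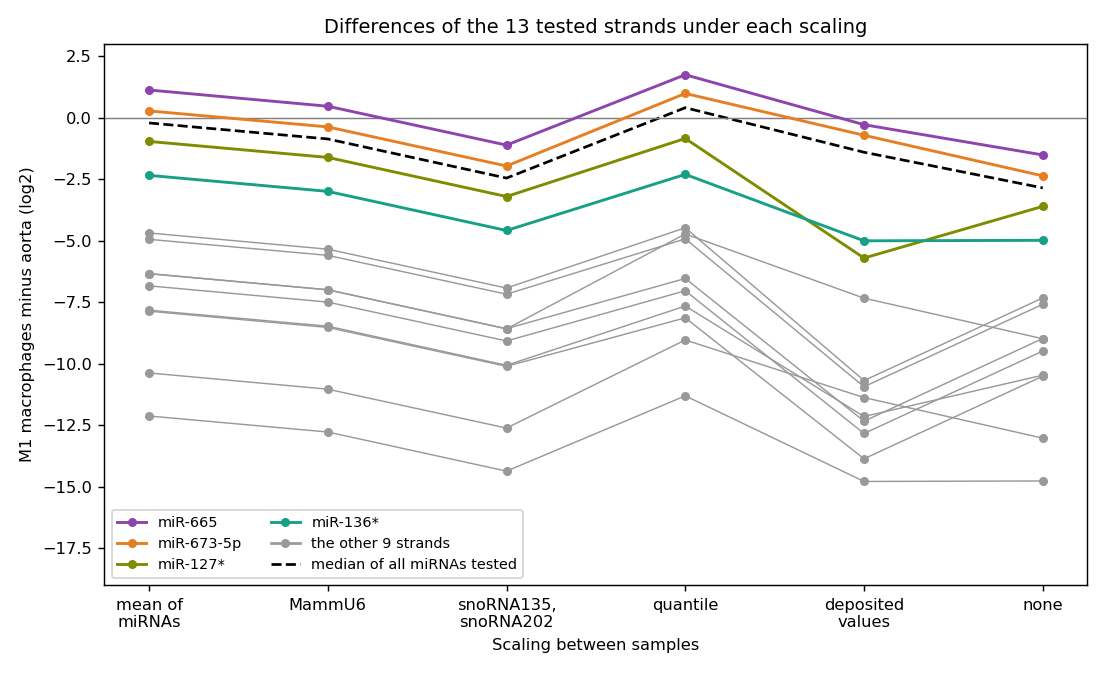
Difference between M1 macrophages and aorta (log2 axis) of the 13 tested strands under 6 scalings, each strand a line, with the median of the 429 miRNAs dashed. The 9 grey strands stay at -4.47 or lower throughout, while miR-673-5p and miR-665 run close to the dashed line and cross 0.

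Setting the strands of one hairpin against each other within a sample removes the scaling between samples. The Ct difference itself also holds the unequal efficiency of the 2 assays, which was not measured, so only its change between groups is read. The table held 139 hairpins with 2 strands, and in 64 both were detected in all 7 samples. The difference changed in 33 of these 64, or 51.6% (limma, adjusted p under 0.05). None of the 8 hairpins described here was among the 64. A second fit, added after the data were seen, kept 105 hairpins with at least 1 strand detected in every sample, took undetected wells at the limit, and made no call where the limit allowed no direction. It called 29 of the 105, or 27.6%, a share that counts the 26 hairpins without a direction, which could not be called.

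In miR-673 the balance of strands changed. miR-673-3p crossed at least 7.29, 8.52 and 5.46 cycles later than miR-673-5p in the 3 macrophage samples. In the aortas the strands were close, with miR-673-3p at -0.31, -0.32, 0.22 and 2.29 cycles relative to miR-673-5p. Every macrophage bound lay above every aorta value. The difference shifted by at least 6.62 ± 0.97 cycles (SE, limma adjusted p = 0.00413), a change of at least 98.0-fold if each cycle doubles the product. As miR-673-3p was at the limit in every macrophage sample, the macrophage part of this SE and adjusted p is the spread of miR-673-5p alone. The fit is therefore a description. The shift was 7.22 without aorta replicate 4, 5.90 without macrophage replicate 2 and 7.43 without macrophage replicate 3. Its size followed the limit, at 3.62 with Ct 32 and 9.62 with Ct 38. Such a shift was not particular to miR-673, which ranked 3 by size in the second fit. Ahead of it were miR-376b, also of the imprinted domain (at least 8.20 cycles, limma adjusted p = 0.0227), and miR-150 (-6.75 cycles).

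miR-136 also had its strands far apart in the 2 macrophage samples that could be read, there with the star strand ahead. The Ct of miR-136* minus that of miR-136 was at most -5.45 and -5.34 cycles in macrophage replicates 1 and 2, and neither strand crossed in replicate 3. In the aortas the same difference was -1.16, 3.18, 3.23 and 2.45 cycles. Both macrophage values lay below all 4 aortas. Without macrophage replicate 3 the shift was -7.32 cycles or beyond (limma, adjusted p = 0.0176), and with it the pair could not be fitted. That fit rests on the 2 macrophage samples that could be read, both with miR-136 at the limit, so it is a description.

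The other hairpins gave no such reading. miR-337-3p crossed at least 2.06, 2.64 and 0.97 cycles after miR-337-5p in macrophages, against 3.32, 3.43, 3.80 and 3.63 cycles in aortas, so the limit allowed no direction. With a limit of Ct 38 the shift was at least 1.34 cycles (adjusted p = 0.0913). The Ct of miR-434-3p minus that of miR-434-5p was -1.04 cycles in macrophage replicate 1 and at most -0.98 and -2.78 in replicates 2 and 3. In aortas it was -3.44, -3.68, -4.57 and -4.95 cycles. Replicate 1, the macrophage sample with both strands detected, lay outside the aortas through wells at 32.02 and 33.06, and the pair as a whole gave no direction. For miR-127 the plain strand led by 13.03, 10.72 and 9.27 cycles in 3 aortas and by at least 14.33 in replicate 2. In macrophages it led by at least 2.01 and 0.03 cycles in replicates 1 and 2, bounds that all the aortas also meet.

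**Figure D4:**
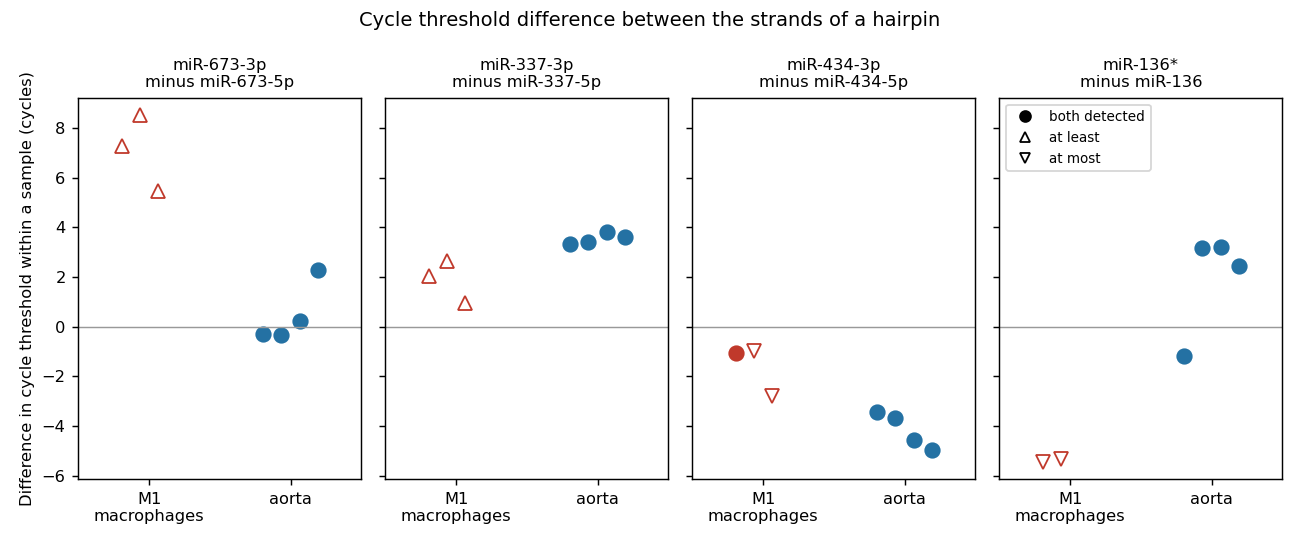
Ct of one strand minus Ct of its partner within each sample, in cycles, for miR-673, miR-337, miR-434 and miR-136, with M1 macrophages left of aorta. Filled points have both strands detected, open triangles are bounds pointing the way the true value may lie, and in miR-673 all 3 macrophage bounds (at least 5.46) lie above the aortas (at most 2.29).

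The order of the strands in aorta was led by 2 of them. miR-127 had a mean Ct of 19.57 ± 0.93 and miR-434-3p of 19.74 ± 0.92 (SD, n = 4 each), a gap of 0.17 within their spread. After a gap of 4.16 cycles came miR-434-5p (23.90 ± 0.68), miR-337-5p (24.13 ± 0.86) and miR-136 (24.50 ± 1.06), then miR-433, miR-673-5p, miR-673-3p, miR-136*, miR-431 and miR-337-3p between 25.52 and 27.68. Apart from that gap of 4.16 cycles, no step between neighbours in the order exceeded 1.02 cycles. Since assays differ in efficiency, the order is one of signals. In macrophages the 3 strands detected in every sample had mean Ct 27.91 ± 1.54 for miR-673-5p, 32.75 ± 1.10 for miR-434-3p and 33.11 ± 0.85 for miR-337-5p (SD, n = 3 each). miR-673-5p, a middle strand in aorta, was the first of these in macrophages.

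Other miRNAs of the imprinted domain were also mostly lower. A list of 48 strands from 36 hairpins, namely miR-370, miR-493, miR-770 and the miR-379 to miR-410 cluster, had 26 lower, 2 higher, 14 that did not pass and 6 untested. Its median difference was -3.43, against -6.33 for the hairpins described here, and the difference between the lists was not tested. Macrophage samples detected 16, 16 and 10 of the 48, and aortas 43, 36, 45 and 42. In both lists a minority was detected in every macrophage sample, 3 of 17 and 10 of 48, against 313 of all 517 miRNA assays. Beside miR-673-5p, 2 strands of the longer list were detected in every sample without passing, miR-300 (0.62, adjusted p = 0.385) and miR-376b (-2.01, adjusted p = 0.218). Both were chosen after their values were seen, and miR-381 (3.74) and miR-494 (2.35) were the 2 higher ones.

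The miRNAs whose profile over the 7 samples was most like the median of the 11 strands detected in all aortas came from elsewhere with 1 exception. Likeness was the root mean square difference between profiles centred on their own mean, over 375 candidates with a median of 3.47 on the log2 scale. Before centring, the median of the strands in macrophage replicates 2 and 3 was the limit itself (-9.55 and -7.23). Likeness there is therefore in part likeness to the limit, not to a measured level. The 5 closest were miR-31* (0.63), miR-676* (0.66), miR-199b* (0.70), miR-214* (0.70) and miR-495 (0.73), of which miR-495 lies in the miR-379 to miR-410 cluster. Of the 11 strands themselves, miR-434-5p was closest to their median (0.62) and miR-673-5p farthest (3.67). Only miR-434-5p among the strands lay nearer to their median than these 5 did.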

How the data were processed

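RNA of 3 M1 macrophage cultures and 4 aortas was isolated with the mirVana kit, per the labels' protocols. The authors' deposited raw table gives Ct values for 524 assays (517 mouse miRNAs and 7 controls). Ct 40 marks the 21.6% of miRNA wells that did not cross. The authors also deposited normalized values, in cycles and so on a log2 scale. Compared value by value, these are Ct less the average of a sample's MammU6 and snoRNA202 wells (largest departure 5e-05 cycles). The sources used here do not name the instrument, the threshold or any preamplification.

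Repeated wells of a control were averaged. Fits used limma 3.58.1 in R 4.3.3 (lmFit and eBayes, 2-sided, group as the only term), tested on simulated data. The simulated data had no Ct limit and no strand pairs, so they do not speak to wells at the limit or to the pair fits. Sequences came from RefSeq. Tables and plots used Python 3.11.15, pandas 2.3.3, numpy 2.4.6 and matplotlib 3.10.9. The number of samples limits the precision. The members, lists and tests were chosen with earlier results of these data known. Every strand of the 9 hairpins is accounted for, and other miRNAs are named as markers, as the 5 most alike, or as stated. Alternatives covered the scaling, limits of Ct 38 and Ct 32, the filter, the replicate block and leaving out each sample.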

Additional observations from a re-analysis of the deposited data

How the results depend on the processing

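The 9 strands passed as lower in every one of the 17 alternatives that tested them (146 of 146 values). Of them, 5 stand at the limit in macrophages, so this says nothing about their stability. miR-127 and miR-434-5p also have macrophage wells at the limit, so for them the outcome was partly fixed. Only miR-337-5p and miR-434-3p were detected in every macrophage sample. The count of lower strands was 12 with the snoRNA pair, 11 without scaling and 2 when only miRNAs detected in all 7 samples were tested, which leaves 3 strands. With no filter, 2 strands were called higher, miR-433* and miR-540-3p, which crossed in no sample and differ only through the limit. miR-673-5p turned to -0.37 with MammU6, -1.96 with the snoRNA pair, -2.36 without scaling, -0.71 with the deposited values, -0.01 at a limit of Ct 32 and between -0.03 (without macrophage replicate 2) and 0.59 when 1 sample was left out. miR-665 turned to -1.11 with the snoRNA pair, -1.51 without scaling, -0.28 with the deposited values, -0.53 without aorta replicate 1, and between -0.96 (without macrophage replicate 2) and 3.23 when 1 sample was left out. Apart from what each scaling does by construction, the cause was not tested. Same-numbered samples did not deviate together (correlations of 0.04, 0.06 and -0.04 over 296 miRNAs), and with the replicate block 9 strands were lower, 212 of 429 miRNAs (121 of them lower) and 27 of 64 strand pairs were called, and miR-673 shifted by at least 7.22 cycles. The limit of Ct 35 and the later wells of macrophages set the size of every bound.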
